A study of Mus musculus with 6 samples.

Results

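Regions of open chromatin found in the pro-B cell line CBE_2 and in neither of the other lines were described from 6 ATAC-seq libraries. Peaks of the 6 deposited lists that overlapped by at least 1 bp were merged into 149724 regions. A region was called CBE_2-only when it held a peak in both CBE_2 lists and none in the 4 CBE_1 and WT lists. The rule kept 4701 regions, which is 3.14% of all regions and 6.26% of the 75141 regions found in both CBE_2 lists. Presence and absence of a peak chose the members, so the lack of peaks in CBE_1 and WT is no result, and no test was run on it. CBE_1-only regions (998, 0.667% of all regions) and WT-only regions (13003, 8.68%), chosen by the matching rule, and the 47767 regions present in all 6 lists (31.9%) are given beside the members where they differ.

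The libraries came from untreated cultures of bone marrow pro-B lines of strain 129SV, all deficient for RAG2. CBE_2 and CBE_1 are labelled IGCR1-/-, so they carry the same genotype in separate lines, and WT is labelled wild type. Each line has 2 libraries of 200000 cells, amplified with 11 PCR cycles. Whether the duplicates are separate cultures is not given in the labels, so the spread within a line may be technical. With 1 line each, a trait of the CBE_2 line and an effect of the mutation cannot be told apart here, and CBE_1 shares the genotype.

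ATAC-seq cuts DNA with the transposase Tn5, which enters chromatin where nucleosomes are absent or displaced, so a pile-up of cut fragments marks an accessible site. Such sites are mostly promoters, enhancers and binding sites of insulator proteins. Promoters of broadly used genes are open in most cell types, whereas enhancers and the promoters of developmental regulators are often open in some cells and closed in others. RAG2 belongs to the enzyme that recombines antigen receptor gene segments, and IGCR1 is a control region of the immunoglobulin heavy chain locus that binds the insulator protein CTCF. Positions below are 1-based coordinates of mm9. No annotation of that build was at hand, so the regions carry no gene names, the pro-B identity was not checked against marker genes, and no sequences are shown.

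List lengths were 94665 and 97522 peaks for CBE_2, 72318 and 80242 for CBE_1, and 112241 and 106056 for WT. In each CBE_2 list 4771 peaks fell in members, which is 5.04% of the peaks of replicate 1 and 4.89% of those of replicate 2. They covered less of the open sequence than their number, 2.65% and 2.64% of the bases under peaks. By contrast, regions present in all 6 lists took 57.7% and 56.5% of the CBE_2 peaks and 77.9% and 77.0% of the bases. Read numbers are unknown, but the deposited folds allow the count of reads piled up at a summit to be inferred. For members this pile-up had a median of 25 in CBE_2 replicate 1 and 28 in replicate 2, against 64 and 71 for regions present in all 6 lists. The lowest pile-up of any peak in these lists was 16 and 18, so a typical CBE_2-only region rested on a small count not far above that limit.

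Most members were weak peaks. Their median fold over background was 3.19 in CBE_2 replicate 1 and 3.11 in replicate 2, against 7.97 and 7.73 for regions present in all 6 lists. Ranked within each list by the deposited significance, where 100 is the strongest peak, members stood at a median percentile of 27.1 and 28.0, and regions of all 6 lists at 73.0 and 73.6. The middle 50% of members lay between percentiles 14.4 and 41.0 in replicate 1 and between 16.5 and 42.4 in replicate 2. In both lists together 3821 members (81.3%) stayed in the lower 50%, 339 were in the better 50% of 1 list, and 541 (11.5%) were in the better 50% of both. The corresponding share in the better 50% of both lists was 11.2% for CBE_1-only and 15.3% for WT-only regions. No more than 32 members were above percentile 80 in both CBE_2 lists, and 1 was above percentile 90 in both. Without CBE_2 replicate 1 or CBE_2 replicate 2, when a single CBE_2 list sets the members, their median percentile was 16.5 and 14.4.

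As a share of the peaks in each span of 10 percentiles, members were not most frequent at the very bottom of the lists. The spans hold unequal numbers of peaks because of ties. By count, percentiles 0 to 10 of replicate 1 held the most member peaks, 964 of 11398, against 754 of 7288 in percentiles 20 to 30. In replicate 2 the counts were 721 of 9577 and 1023 of 10551. Peaks in members made up 8.46% of the CBE_2 replicate 1 peaks and 7.53% of the replicate 2 peaks in percentiles 0 to 10. The share was highest in percentiles 20 to 30, at 10.3% and 9.70%. It was 3.89% and 4.13% in percentiles 50 to 60 and 0.822% and 0.834% in percentiles 70 to 80. Of the best 10% of peaks, 1 of 9502 in replicate 1 and 8 of 9767 in replicate 2 lay in members. The WT-only share had a similar shape in the WT lists, with its highest values between percentiles 20 and 40, whereas the CBE_1-only share in the CBE_1 lists was highest in percentiles 0 to 10, at 3.23% and 2.99%. List lengths differ between the lines, and their part in these shares was not tested.

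**Figure D1:**
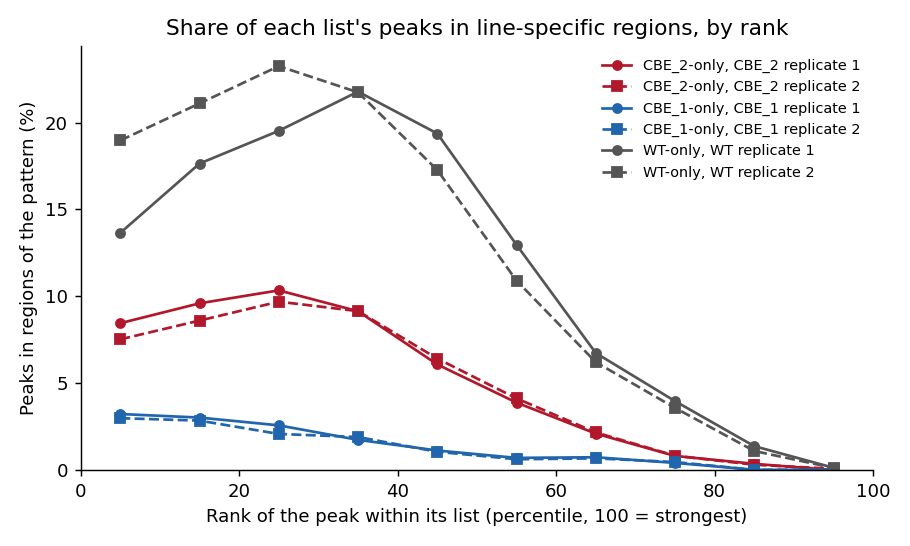
Share of the peaks of each list that lie in regions specific to that line (y axis, percent), by the rank of the peak within its list (x axis, percentile of the deposited significance, 100 strongest, points at the middle of each span of 10). The CBE_2-only share is highest at 10.3% and 9.70% in percentiles 20 to 30 and near 0 among the strongest peaks.

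The duplicates ranked members less alike than they ranked shared regions. Across the 4701 members the percentiles of the 2 CBE_2 lists had a Spearman rho of 0.665 and a median absolute difference of 8.02 points. Across the 47767 regions present in all 6 lists the rho was 0.981 and the difference 2.06 points. These are descriptions across regions of the same 2 libraries, and members span a narrower range of ranks. Summits of the 2 lists lay a median of 50 bp apart in members, against 27 bp in regions of all 6 lists, and 318 members had summits over 200 bp apart. Of the members 4574 (97.3%) consisted of exactly 1 peak in each CBE_2 list.

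**Figure D2:**
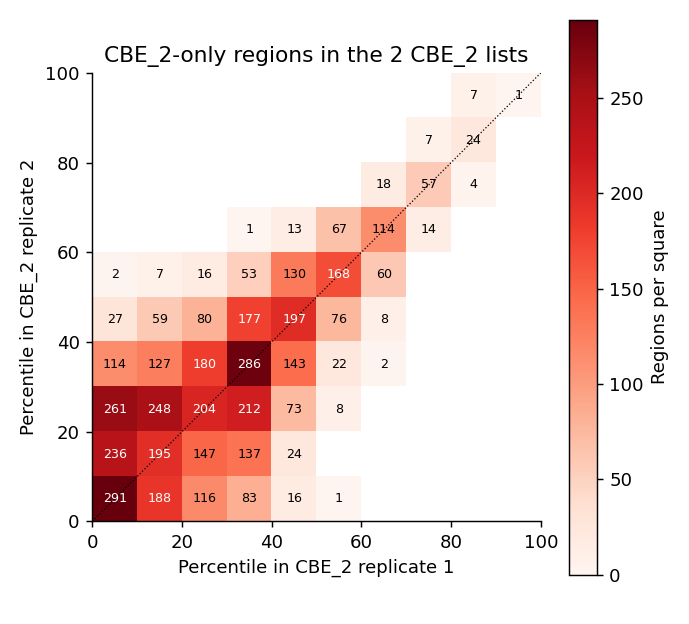
Number of CBE_2-only regions by percentile of significance in CBE_2 replicate 1 (x axis) and replicate 2 (y axis), in squares of 10 by 10 points with the count printed in each; the dotted line marks equal ranks. Counts spread widely in the lower left and narrow to the line above percentile 60, where few regions remain.

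The strongest members were well marked in both duplicates. At 21866228 to 21867273 on chromosome 5, the best ranked, the fold was 18.6 in CBE_2 replicate 1 and 18.04 in replicate 2, with percentiles of 93.8 and 94.8 and summits 8 bp apart. It was 33.0 kb from any CBE_1 or WT peak. Next came 169340688 to 169341766 on chromosome 2, with folds of 15.9 and 15.4, and 75876285 to 75878833 on chromosome 8, with folds of 15.8 and 16.9 and no CBE_1 or WT peak within 118.7 kb. The 10 best ranked lay on 9 chromosomes, had folds of 13.4 to 18.6 and were 898 to 2549 bp wide. They included 68127974 to 68128969 on chromosome 18, a chromosome with few members, with a fold of 15.6 in both lists. Their distance to the nearest region of all 6 lists varied from 0.746 to 496.6 kb. Of these 10 regions, 8 had another member within 10 kb: 9792801 to 9794278 on chromosome X was 1016 kb from the next one, and the region on chromosome 5 was 14.98 kb from it.

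Values on either side of the rule show how the members border on other regions. The lowest members in CBE_2 replicate 2, such as 72743182 to 72743474 on chromosome 3, had folds of 2.70 and 2.15, at percentiles 9.77 and 0.0538. Another 5725 regions were found in CBE_2 replicate 1 alone, at a median percentile of 9.77, and 6444 in replicate 2 alone, at 12.1. A further 3602 regions were in both CBE_2 lists and in exactly 1 other list, at a median CBE_2 percentile of 27.2, close to the members' own 26.5. Of those, 838 to 1293 missed the rule by 1 WT list and 486 to 985 by 1 CBE_1 list. The strongest of them, at 99971418 to 99973719 on chromosome 12, had folds of 16.7 and 16.6 in the CBE_2 lists and 2.81 in WT replicate 1. Without CBE_2 replicate 1 the rule kept 11534 regions and without CBE_2 replicate 2 it kept 10805. Without any 1 of the CBE_1 or WT libraries it kept 5201 to 6034.

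Members were narrower than regions of all 6 lists. Their median width was 391 bp, with quartiles of 319 and 511 bp (263 bp without CBE_2 replicate 1 and 259 bp without CBE_2 replicate 2), against 392 bp for CBE_1-only, 398 bp for WT-only and 1053 bp for regions of all 6 lists. Over all regions the median was 450 bp. The 83255 regions outside these 4 sets were narrower than members, with a median of 327 bp and quartiles of 236 and 470 bp. A merged region is wider than its peaks, so single peaks were set side by side: in CBE_2 replicate 1 peaks in members had a median width of 317 bp, against 694 bp for peaks in regions of all 6 lists, and in replicate 2 of 327 bp against 693 bp. At a like rank the difference was small up to percentile 80 and larger among the few members ranked higher. In percentiles 20 to 30 of CBE_2 replicate 1, member peaks had a median of 293 bp and other peaks 299 bp. In percentiles 60 to 70 they had 595 and 572 bp. In percentiles 80 to 90, with 35 member peaks, they had 995 and 1256 bp. In CBE_2 replicate 2 the widths were 983 and 1230 bp in percentiles 80 to 90, and 978 and 1849 bp for the 8 member peaks and the others above percentile 90. The 3 widest members measured 2959 bp on chromosome 9 at 98854852 to 98857810, 2864 bp on chromosome 14 at 117324027 to 117326890, and 2737 bp at 64224621 to 64227357 of the same chromosome. Their folds were 4.29 in both CBE_2 lists for the first, 9.69 and 8.05 for the second, and 12.9 and 11.4 for the last.

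Members lay apart from the open chromatin that all lines share. The median gap to the nearest region present in all 6 lists was 13.9 kb (95% interval of the median 12.9 to 14.8 kb), against 4.40 kb for CBE_1-only and 9.87 kb for WT-only regions. Regions of all 6 lists were a median of 3.91 kb from one another. Within 1 kb of such a region lay 13.4% of members, 22.3% of CBE_1-only and 15.5% of WT-only regions. Over 100 kb away lay 12.9%, 10.4% and 15.7% of the 3 sets. No test was run between the sets, because regions are not independent and the same lists chose the sets. The most remote members lay on chromosome X, at 61311707 to 61312017, 3653 kb from the nearest region of all 6 lists, and at 123327900 to 123328299, 2510 kb from it. The third most remote lay on chromosome 3, at 3029341 to 3029806, 2242 kb from such a region but 0.728 kb from a CBE_1 or WT peak.

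Members close to shared open chromatin were weaker than the rest. The 541 members in the better 50% of both CBE_2 lists were a median of 22.2 kb from a region of all 6 lists, against 12.3 kb for the 3821 in the lower 50% of both. Of the 628 members within 1 kb of a region of all 6 lists, 5.41% were in the better 50% of both lists. That share was 9.23% of the 1408 members at 1 to 10 kb, 13.4% of the 2059 at 10 to 100 kb, and 16.7% of the 606 farther away. The members within 1 kb also had lower median percentiles, 19.02 and 20.8 in the CBE_2 lists, than those at 10 to 100 kb, 30.6 and 31.0. Over 100 kb away the medians were 27.1 and 28.0, the same as at 1 to 10 kb, so the median rank did not keep rising with distance.

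Measured to the nearest peak of any CBE_1 or WT list, the median gap was 3.98 kb. The nearest peak of a CBE_1 list was a median of 7.06 kb away and the nearest of a WT list 5.65 kb. Of the members 690 (14.7%) lay within 500 bp of such a peak and 90 (1.91%) within 100 bp, so a wider merging distance would join them to it. At the other end 1491 members (31.7%) had no CBE_1 or WT peak within 10 kb, and 99 had none within 100 kb. The most isolated, on chromosome 1 at 28913629 to 28913958, was 563.9 kb from any, with folds of 2.57 and 2.68 in the CBE_2 lists.

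**Figure D3:**
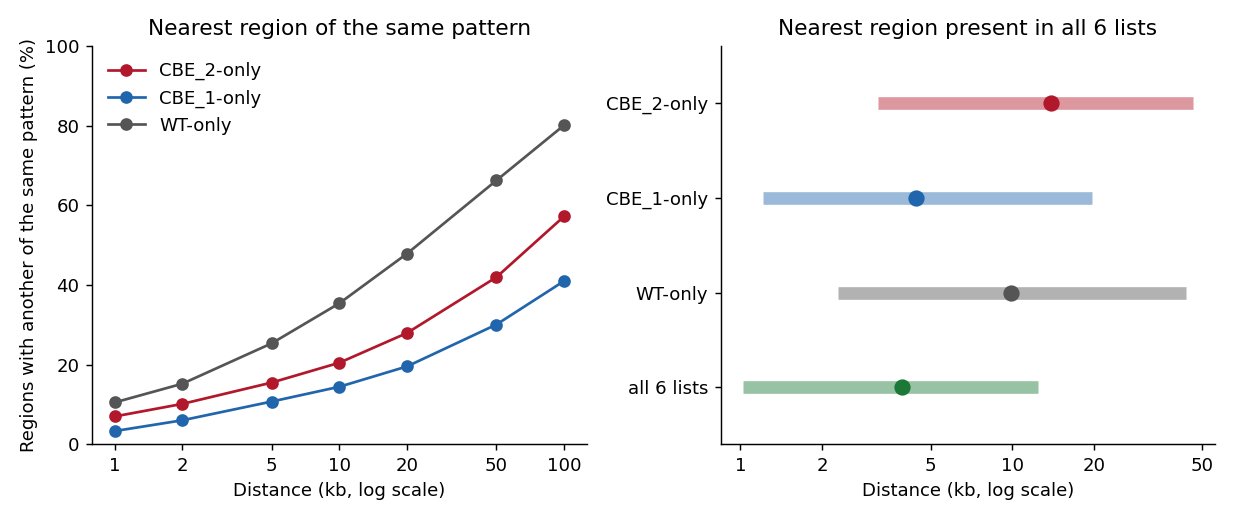
Left: share of CBE_2-only, CBE_1-only and WT-only regions (y axis, percent) with another region of the same pattern within a given distance (x axis, kb, log scale). Right: gap to the nearest region present in all 6 lists (x axis, kb, log scale), with points for medians and bars from the lower to the upper quartile; the CBE_2-only median is 13.9 kb. The sets differ in size, which the left panel does not correct for.

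Members adjoined one another more often than their share of all regions, though most adjoined no other member. Each member has 2 neighbour positions, the next region on either side, and 1154 of the 9402 positions (12.3%) were taken by another member, 3.91 times the 3.14% that members make up of all regions. An adjacent pair counts at both its ends, and 1006 different members adjoined at least 1 other, while 3695 adjoined none. Each pattern adjoined its own kind above its share: 6.22% of the neighbours of CBE_1-only regions were CBE_1-only, against 0.667% of all regions, and 19.2% of those of WT-only regions were WT-only, against 8.68%. Members adjoined the other line-specific patterns less, with 4.75% WT-only neighbours against 8.68% of all regions and 0.255% CBE_1-only neighbours against 0.667%. Adjacency to members was more frequent for strong members, 23.0% for those in the better 50% of both CBE_2 lists and 10.4% for those in the lower 50% of both. It was 22.9% for members over 100 kb from a region of all 6 lists and 4.62% for those within 1 kb of one, whose neighbour position is often taken by that region. By distance these 2 classes were close, with another member within 50 kb for 40.8% and 38.2% of them. Without CBE_2 replicate 1 the share of neighbours was 18.6% and without CBE_2 replicate 2 it was 19.1%, beside members that then made up 7.93% and 7.47% of all regions.

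Of the members 1972 (41.9%) had another within 50 kb and formed 755 groups, of which 50 held 5 members or more. The other 2729 stood alone. Of the 998 CBE_1-only regions 30.1%, and of the 13003 WT-only regions 66.2%, had another of their own pattern within 50 kb. The largest such group held 14 regions for CBE_1-only and 41 for WT-only, against 14 for the members. The members' share within 50 kb was 63.0% without CBE_2 replicate 1, where members were more numerous. Runs of at least 2 members with no other region between them numbered 429 and held 1006 members, and 13 runs had 5 or more. The longest run was of 9 members, against 9 for CBE_1-only and 10 for WT-only regions.

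The largest group held 14 members on chromosome 6 at 52035586 to 52266032, over 230.4 kb. In this stretch the CBE_2 lists had 31 and 29 peaks, the CBE_1 lists 12 and 11, and the WT lists 8 and 6. Only 5 of its 31 regions were present in all 6 lists. The strongest member, at 52108058 to 52109063, had folds of 10.2 and 9.77 in the CBE_2 lists, and the widest, at 52194810 to 52197277, had 8.46 and 9.45. Of the 14, 7 were in the better 50% of both CBE_2 lists, against 11.5% of all members. From general knowledge of mm9, not checked against an annotation of that build, this stretch overlaps the HoxA cluster, whose genes encode homeodomain transcription factors that pattern the body axis and of which several are active in early blood progenitors.

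Because that position was recognised after the group was seen, approximate windows of all 4 Hox clusters were then counted. All 12 members in the HoxA window belong to the largest group, so the HoxA count repeats that group. Members were 12 of 30 regions in the HoxA window, 5 of 29 in HoxB, 2 of 43 in HoxC and 3 of 21 in HoxD, against 3.14% of all regions. The CBE_2 lists had 30 and 28 peaks in the HoxA window, against 13 and 11 in CBE_1 and 8 and 6 in WT. HoxB had 26 and 24 peaks in CBE_2, 11 and 11 in CBE_1, and 15 and 13 in WT. In HoxC, peaks numbered 27 and 21 in CBE_2, 26 and 25 in CBE_1, and 13 and 11 in WT. HoxD had 17 and 14, 9 and 7, and 5 and 5 in the same order. Members in HoxB, HoxC and HoxD were weak, with folds of 2.57 to 3.43 and percentiles of 5.57 to 33.7 in the CBE_2 lists. Those in HoxA had folds of 2.45 to 10.2 and percentiles of 2.40 to 79.6.

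In the next 4 groups CBE_1 had 0 to 9 peaks per list and WT at most 1. On chromosome 7 at 36779534 to 36893552, 12 of 14 regions were members and the other 2 were found in a single CBE_2 list, so neither CBE_1 nor WT had any peak over 114.0 kb. Here lay the longest run, 9 members from 36779534 to 36847543. Its strongest members, at 36806693 to 36807488 and 36815057 to 36815970, had folds of 9.32 and 10.3, and of 9.07 and 9.77, in the CBE_2 lists. Its weakest, at 36799423 to 36799734, had 3.19 and 2.36. A further 11 members lay on chromosome 11 at 112876730 to 113025729, where the CBE_2 lists had 19 and 20 peaks, the CBE_1 lists 9 and 7, and the WT lists 1 and 0.

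On chromosome 5 at 50395621 to 50451118, 9 of 11 regions were members, the other 2 were in a single CBE_2 list, and the nearest region of all 6 lists was 913.8 kb from the group. On chromosome 9 at 91245328 to 91337486, 9 members stood among 15 and 13 CBE_2 peaks, with 2 peaks in each CBE_1 list and none in WT. The second longest run was short in span. Its 7 members filled 104857290 to 104866125 of chromosome 14, a stretch of 8.84 kb. Their folds were between 2.58 and 6.44, and they came within 0.162 kb of a region present in all 6 lists.

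**Figure D4:**
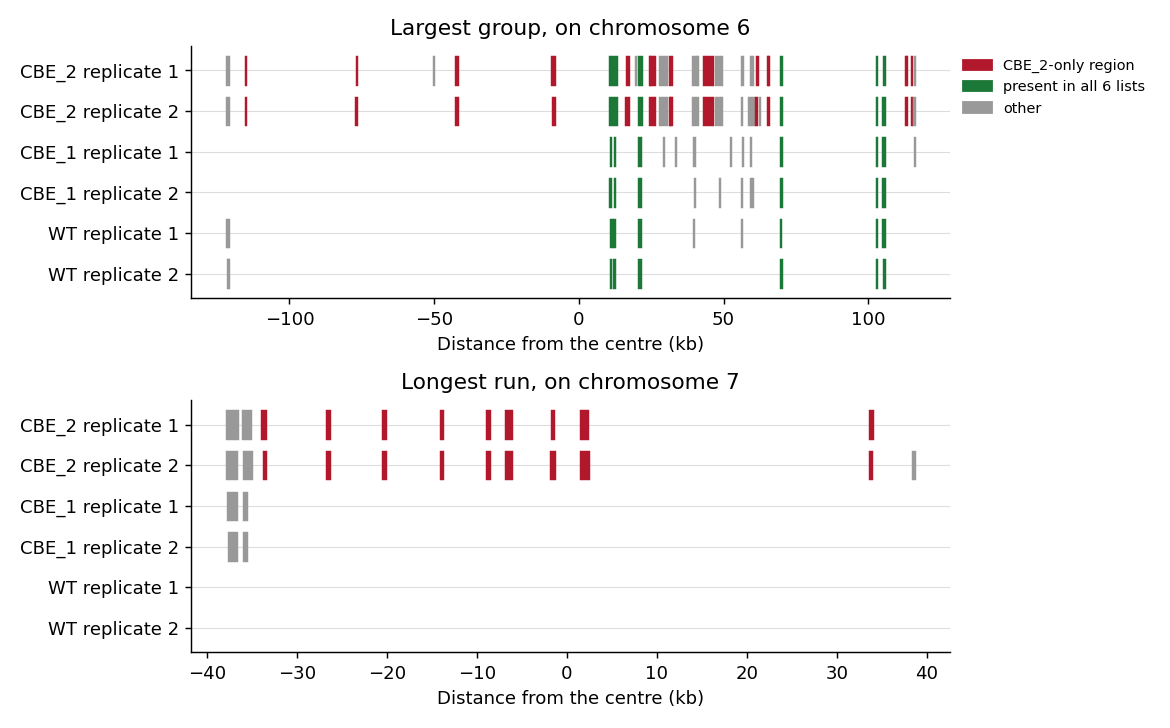
Peaks in the 6 libraries (rows) over the largest group, on chromosome 6, and the longest run, on chromosome 7; the x axis is the distance from the centre in kb, and thin peaks are drawn slightly wider than they are. Peaks of CBE_2-only regions (red) stand in the CBE_2 rows alone by definition. On chromosome 6 they lie between and on either side of peaks present in all 6 lists (green). On chromosome 7 none of the green peaks lies within 72.8 kb of the run.

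Members were found on every chromosome, at unequal density. They made up 5.20% of the regions of chromosome X (164 of 3155, 95% Clopper-Pearson interval 4.45 to 6.03), 4.25% on chromosome 14 (266 of 6263) and 4.23% on chromosome 3 (355 of 8392), the 3 highest. The 3 lowest were chromosome 18 with 0.611% (52 of 8511), chromosome 19 with 0.954% (47 of 4929) and chromosome 10 with 2.20% (214 of 9747). The other chromosomes lay between 2.37% and 3.83%. CBE_1-only regions were also more frequent on chromosome X, at 1.58% against 0.667% of all regions, but were highest on chromosome 18, at 1.96%. WT-only regions made up 7.32% of the regions of chromosome X, 10.6% on 18 and 20.6% on 19, against 8.68% of all regions. The denominators are all merged regions of a chromosome, whichever lists they came from, so they depend on the other lines too. Among regions found in both CBE_2 lists the members' share was 8.70% on chromosome X, 8.57% on 14 and 8.52% on 3, and 2.28% on 18, 2.50% on 19 and 5.06% on 10, against 6.26% in all. By that measure chromosome 4, at 4.53%, was lower than 10. Without CBE_2 replicate 1 or CBE_2 replicate 2 chromosome 14 came first, at 12.1% and 11.5%, chromosome X had 11.7% and 11.1%, and chromosome 18 stayed lowest, at 1.35% and 1.44%. On chromosome 18 the share was 1.12% without CBE_1 replicate 2.

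The lists themselves also differed on the chromosomes with the highest and lowest shares, though not in the same way on each. Chromosome 18 held 3.12% of the peaks of both CBE_2 lists, 5.68% and 5.97% in CBE_1, and 5.37% and 5.20% in WT. Chromosome 3 held 5.72% and 5.63% in CBE_2, 4.71% and 4.91% in CBE_1, and 5.29% and 5.20% in WT, and chromosome 14 held 4.28% and 4.31%, 3.39% and 3.54%, and 4.00% and 3.93% in the same order. Chromosome X held 2.38% and 2.40% in CBE_2, against 2.12% and 2.31% in CBE_1 and 1.96% and 2.00% in WT. On chromosome 10 CBE_2 (5.81% and 5.82%) lay between CBE_1 (5.29% and 5.28%) and WT (6.73% and 6.71%). Chromosome 19 held 2.47% in both CBE_2 lists, 2.79% and 2.70% in CBE_1, and 3.79% and 3.75% in WT. The part of these differences in the members' spread was not tested.

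**Figure D5:**
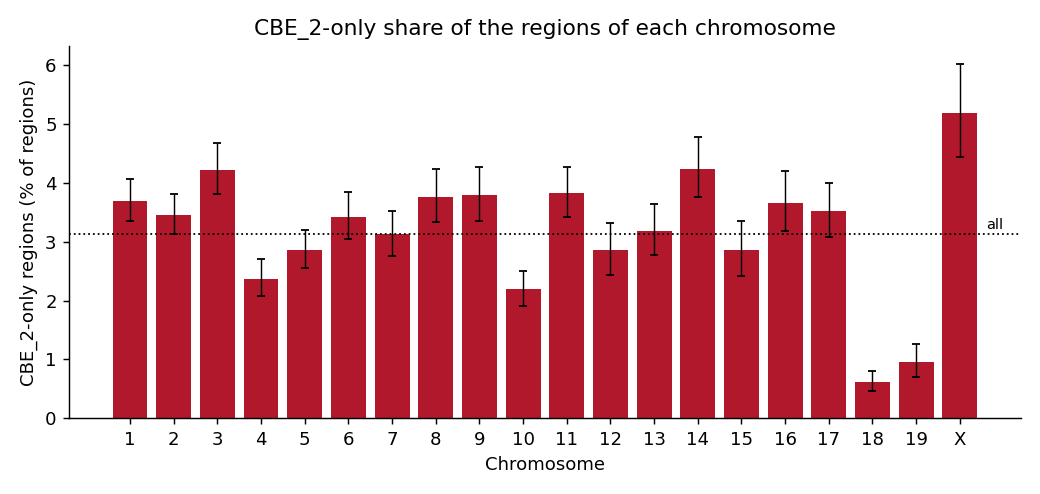
CBE_2-only regions as a share of all regions of each chromosome (y axis, percent; bars start at 0), with exact 95% binomial intervals that cover counting error only; the dotted line is the share over all chromosomes, 3.14%. Chromosome X is highest at 5.20%, and chromosomes 18 and 19 are lowest at 0.611% and 0.954%.

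On chromosome X the members also lay far from shared open chromatin, with a median gap of 30.1 kb to a region of all 6 lists, against 13.9 kb over all chromosomes. On chromosome 16 the gap was 25.1 kb, and the shortest was 8.06 kb, on chromosome 4. Chromosome X had 3155 regions and chromosome 4 had 9189, with 35.1% of them present in all 6 lists on each. The part of this in the gaps was not tested. The median percentile, averaged over the CBE_2 lists, ran from 24.0 for the members of chromosome 1 to 30.9 for those of chromosome 7. Of the 52 members of chromosome 18, 8 were in the better 50% of both CBE_2 lists, as were 24 of the 164 of chromosome X.

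The immunoglobulin heavy and kappa chain loci were the antigen receptor loci counted. An approximate window of the immunoglobulin heavy chain locus on chromosome 12 had 3 members among 387 regions (0.775%), against 3.00% on the rest of that chromosome. They lay at 115016785 to 115017130, with folds of 2.94 and 3.01 in the CBE_2 lists, at 115529066 to 115529658, with 3.31 and 2.90, and at 116219169 to 116219400, with 3.19 and 3.65. All stood in the lower 50% of both CBE_2 lists, and all lay within 1.45 kb of a CBE_1 or WT peak. The window of the kappa light chain locus on chromosome 6 had 5 members among 250 regions (2%), and the rest of chromosome 6 had 3.48%. The 5 had folds of 2.47 to 3.22.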

How the data were processed

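The authors deposited 1 peak list per library, so replicates were not pooled. Per the submitters' processing notes, mm9 was the build, and Trimmomatic, Bowtie2, SAMtools and Picard were used. The peak caller, its settings and any Tn5 shift were not given in the sources used here. Per the file columns, the deposited score, the fold (a ratio over background) and the −log10 p and q values are the authors' own values for each peak, and were used only to describe and rank peaks within a list. Each score is 10 times the −log10 q-value, without decimals. Folds were whole multiples of 1 step in every list (tolerance 2% of the step). With pile-up plus 1 over background plus 1 as the fold, the steps gave backgrounds of 7.16 and 8.31 reads in CBE_2, and Poisson values came within 1% of the deposited ones for at least 99.89% of a list. These are inferred counts, not depths.

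Peaks were merged with pandas 2.3.3 in Python 3.11.15, and merging and gaps were tested on simulated lists. Percentiles are mid-ranks of −log10 q. Gaps run between region edges. Replicates are numbered in accession order. Intervals of medians and shares cover counting over regions only. Named regions are the 10 best by the weaker CBE_2 percentile, the 3 widest and most remote, the lowest, those that miss the rule by 1 list, the largest groups within 50 kb, the longest runs, and those in the immunoglobulin windows. Other single regions, and the Hox windows, were named after their values were seen. Window borders are approximate. The members and lists were chosen with earlier results of these data known. The planned search of sequence and annotation was not run, because no genome of mm9 was at hand.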

Additional observations from a re-analysis of the deposited data

Results flagged for a closer look

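On 6 of the 20 chromosomes the share of peaks lay on one side of both WT lists in both CBE_2 lists and on the other side in both CBE_1 lists; the difference was not tested, and shares within a list depend on one another. CBE_2 exceeded WT by 0.433 percentage points on chromosome 3, 0.404 on chromosome 6, 0.330 on chromosome 14 and 0.275 on chromosome 16, where CBE_1 minus WT was -0.439, -0.148, -0.500 and -0.105. CBE_2 minus WT was -0.101 on chromosome 4 and -2.16 on chromosome 18, where CBE_1 exceeded WT by 0.151 and 0.543. CBE_2-only regions made up 4.23%, 3.43%, 4.25% and 3.67% of the regions of chromosomes 3, 6, 14 and 16, and 2.37% and 0.611% of those of chromosomes 4 and 18.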

How the results depend on the processing

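Values are the count of CBE_2-only regions, the median width, the mean of the median percentiles of the CBE_2 lists (27.6 for the 4701 members), the share with another member within 50 kb, the share of chromosome X regions, and the median gaps to a region of all 6 lists and to a CBE_1 or WT peak. They are levels without a direction, so none could be said to reverse. The range of the main result was a 95% counting interval for widths, gaps and shares. For the count it was 1.5 times either way. For the percentile it was 1 standard deviation of the CBE_2 medians either way, 27.0 to 28.2. Over the alternatives, 60 checks of these values moved outside these unlike ranges and 43 did not. Leaving out 1 library, where the rule has fewer lists to meet, gave 5201 to 11534 regions and widths of 259 to 396 bp. Percentiles were then 14.4 to 29.1, shares near another 44.8% to 63.0%, and chromosome X shares 5.53% to 11.7%. The gaps were 10.4 to 12.2 kb and 2.67 to 4.14 kb. Merging across 100 bp moved the last gap to 4.37 kb. Merging across 500 bp gave 397 bp, percentile 29.1, 35.4%, 17.7 kb and 6.23 kb. Merging across 1000 bp gave 400 bp, percentile 29.1, 31.1%, 20.01 kb and 8.10 kb, with the count within 1.5 times. With the better 50% of each list there were 2321 regions of 665 bp at percentile 60.5, with 30.7% near another, 6.05% of chromosome X, and gaps of 19.6 and 8.92 kb. With 72318 peaks from each list the width was 447 bp, the percentile 41.7, the share near another 35.4%, that of chromosome X 4.45% and the last gap 5.67 kb. Members in the better 50% of both CBE_2 lists numbered 541, with 684 bp, percentile 61.8, 20.1%, 0.761%, 22.2 kb and 7.76 kb. Another member lay within 20 kb for 27.9% and within 100 kb for 57.2%. Linking peaks at 50% overlap, leaving out chromosomes 18 and 19, ranking by fold and measuring from midpoints moved no value they bear on outside its range. Beyond the smaller or larger set that each setting makes, the cause was not tested. Neighbours were members 2.35 to 18.9 times as often as among all regions over the alternatives that change the set. Chromosome X came second to 16 with lists of one length, and also came after 14 without CBE_2 replicate 1 and after 14 and 3 without CBE_2 replicate 2; chromosome 19 was lower than 18 with the better 50% of each list. At least 8 of the 10 best-ranked regions stayed CBE_2-only in each alternative. No paired analysis was possible because the labels number no replicates and the results come from no test. Depth limits presence calls, since a region just under a list's threshold counts as absent.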

Other observations

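In windows of 1 Mb, members were present in 1576 of the 2525 windows that held any region, with a median of 1 and a highest count of 21, and 27 windows with 10 or more held 328 members. The window with 21 was 25000001 to 26000000 on chromosome 15, where members were 21 of 41 regions. It had 36 and 41 peaks in CBE_2, 13 and 12 in CBE_1, and 7 and 7 in WT, and held one of the 10 best-ranked members, at 25465664 to 25467824, with folds of 14.8 and 15.03. On chromosome 11, 113000001 to 114000000 held 19 members among 75 regions, with 58 and 63 peaks in CBE_2, 14 and 18 in CBE_1, and 48 and 39 in WT. On chromosome 9, 91000001 to 92000000 held 16 among 41, with 34 and 30 peaks in CBE_2, 6 and 8 in CBE_1, and 7 and 7 in WT. CBE_1 had fewer peaks than WT in every library in the window of chromosome 11 and about as many in that of chromosome 9.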
